A study of Mus musculus with 15 samples.

Results

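The matrix proteases and their tissue inhibitors were followed as a fixed list of 41 mouse genes out of the 55471 genes counted, taken by symbol and Ensembl gene identifier. The list holds 18 matrix metalloproteinases (MMPs), 19 members of the ADAMTS family and the 4 tissue inhibitors of metalloproteinases (TIMPs). All 41 were found in the count table. The data are poly(A)-selected RNA-seq of 15 libraries in 2 experiments from a study of YAP1, of the Ewing sarcoma fusion EWS::FLI1 and of IGF-1 in mouse bone mesenchymal stem cells. Experiment 1 held 3 libraries with the genotype label MSC, called WT in the design (title numbers 202, 234 and 237), and 4 with the label EFPrx1MSCLC, here EFPrx1 (219, 221, 225 and 229). Experiment 2 held 2 libraries of the genotype EF, 2 of ha and 4 of hr, which the design names EFPrx1, ha-EFPrx1 and hr-EFPrx1. All of them are thus named as EFPrx1 cells, and 221 is the number in all 8 titles. The hr libraries form 2 pairs by title, uns-1 and uns-2. What EFPrx1, MSCLC, ha, hr and uns stand for, how the EFPrx1 allele is driven and in which cells, and the age of any animal were not found in the labels. Nor do the labels tell whether replicate libraries stem from different animals or cultures. In experiment 2 the p-values may therefore rest on library-to-library spread that is technical only. In experiment 1 the WT libraries differed in sex-linked transcripts, as given below, and the source of the EFPrx1 spread is not known.

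MMPs are zinc proteases that are made as inactive proenzymes and that cut collagens, gelatin, laminin, proteoglycans and many surface proteins. Mesenchymal cells of bone use the membrane-bound MMP14 together with TIMP2 to activate MMP2 at the cell surface, and they use collagenase-3 (MMP13) in matrix turnover. ADAMTS proteases are secreted, bind matrix through thrombospondin repeats, and include the aggrecan and versican cutters, the procollagen N-propeptidases and a set that acts on fibrillin and cartilage matrix proteins. TIMPs bind the active site of MMPs, and TIMP3, which is held in the matrix, also inhibits ADAMTS proteases.

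Promoter sequence is shown for the 5 MMP genes of the chromosome 9 cluster that share an AP-1 match, and for Adamts1 and Adamts12, which were called both in ha against EF and in hr against ha. RefSeq promoters of GRCm38.p6 (250 bases before to 50 after a start site) matched 27 of the 41 genes, with 30 promoters. They were searched on both strands for the AP-1 motif TGANTCA, the TEAD motif GGAATG, the GGAA repeat GGAAGGAA and the TATA motif TATAAA. The AP-1 letters occurred in 5 genes, Mmp3, Mmp7, Mmp10, Mmp12 and Mmp13, all in the cluster, and in 16.7% of the 30 member promoters against 7.81% of all 32851 promoters in the table. The TATA letters occurred in 7 genes, those 5 with Mmp8 and Adamts1, or 23.3% of member promoters against 13.6% of all. The TEAD letters occurred in Adamts13 and Timp1 (6.67% against 14.7%), and the GGAA repeat in 0 member promoters (3.79% of all). Mmp7 and Mmp12 each had a further RefSeq promoter with no match to any of the 4 motifs. For these genes the window shown is from the promoter that holds the AP-1 match. A motif match is a description of letters and not a measured site. Each window runs 5′ to 3′ on the gene's own strand from 80 bases before to 20 after the RefSeq start site, with AP-1 and TATA matches in capitals.
Mmp13 (chr9:7272434-7272533, plus strand): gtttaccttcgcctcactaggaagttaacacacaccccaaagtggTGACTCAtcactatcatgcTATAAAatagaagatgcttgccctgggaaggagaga
Mmp3 (chr9:7445742-7445841, plus strand): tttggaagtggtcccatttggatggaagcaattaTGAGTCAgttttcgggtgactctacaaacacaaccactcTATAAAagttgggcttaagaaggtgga
Mmp10 (chr9:7502262-7502361, plus strand): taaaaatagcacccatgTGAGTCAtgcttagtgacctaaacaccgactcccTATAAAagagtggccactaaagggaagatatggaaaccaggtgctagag
Mmp12 (chr9:7347294-7347393, plus strand): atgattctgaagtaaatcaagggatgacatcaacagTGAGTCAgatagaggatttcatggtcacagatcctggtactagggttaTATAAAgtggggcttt
Mmp7 (chr9:7692010-7692109, plus strand): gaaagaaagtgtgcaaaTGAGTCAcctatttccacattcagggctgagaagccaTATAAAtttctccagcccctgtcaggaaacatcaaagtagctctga
Adamts1 (chr16:85803094-85803193, minus strand): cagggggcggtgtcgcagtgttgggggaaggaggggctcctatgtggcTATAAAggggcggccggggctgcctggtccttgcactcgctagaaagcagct
Adamts12 (chr15:11064693-11064792, plus strand): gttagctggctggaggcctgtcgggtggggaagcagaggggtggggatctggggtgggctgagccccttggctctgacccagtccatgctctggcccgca
Counted from the start site, the AP-1 match began at -35 in Mmp13, -44 in Mmp12, -46 in Mmp3, and -63 in both Mmp10 and Mmp7. The Adamts12 window held no match to any of the 4 motifs.

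Libraries held 14906251 to 26833939 expected counts in experiment 1 and 11195431 to 16378416 in experiment 2. Mesenchymal stromal markers (10 genes, among them Pdgfra, Vim and Col1a1) were present in every library, at levels that differed between groups. They summed to 15778 to 19622 CPM (counts scaled to library size) in WT and 4344 to 10388 CPM in EFPrx1. Of the 10, 2 were called lower and 1 higher in EFPrx1. The sums were weighted by strongly expressed genes such as Col1a1, at 5399 to 5642 CPM in WT and 235 to 1358 CPM in EFPrx1. Gene by gene, 7 of the 10 had a positive and 3 a negative log2 fold change in EFPrx1, with a median of 0.81. Their sums were 12703 to 12924 CPM in EF, 17727 to 19764 CPM in ha and 11437 to 13445 CPM in hr. Blood cell markers also differed in experiment 1. The 12-gene macrophage and blood list summed to 11892 to 33844 CPM in WT and to 49.3 to 412 CPM in EFPrx1, where 219 was the highest. In experiment 2 that list summed to 7.75 to 28.8 CPM. The 2 EF libraries differed by 1.35 times the counting noise, and the libraries within uns-1 and within uns-2 by 1.29 times, against 7.62 to 124 times in all other pairs of a group. Such close pairs may be repeats of 1 sample, so each count of called genes among the 41 in experiment 2 is given also with the close libraries summed. Counts of the related lists and markers are given with the libraries kept apart. Xist stood at 0.0798 and 0.355 CPM in EF, at 123 to 934 CPM in ha and hr, and at 1200 CPM in the experiment 1 library 221, although all carry the number 221. The part of these differences in the results was not tested.

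Levels are TMM-normalised CPM unless stated, and were compared within an experiment only. Differences are log2 fold changes ± SE from edgeR, with its adjusted p. Per length, as RPKM, which scales reads for exon length and library size, Timp1 had the highest mean level of the 41 genes in WT (1564 RPKM), followed by Mmp3 (818 RPKM) and Timp2 (373 RPKM). Their ranges over the WT libraries overlapped between Mmp3 and both neighbours (307 to 1575 RPKM for Mmp3, 984 to 2108 for Timp1, 297 to 513 for Timp2). Timp2 was first in each of the other 4 groups, with means of 505 RPKM in EFPrx1, 258 in EF, 465 in ha and 348 in hr. Mmp2 came second per length in EF (113 RPKM), ha (390) and hr (126), but eighth of the list in EFPrx1 (21.3 RPKM). At the other end, 9 genes passed the filter on low counts in neither experiment: Mmp7, Mmp25, Adamts3, Adamts8, Adamts13, Adamts17, Adamts18, Adamts19 and Adamts20. Of the 32 genes tested, 22 were tested in both experiments, 7 in experiment 1 alone (Mmp8, Mmp10, Mmp12, Mmp13, Mmp16, Mmp17 and Mmp23) and 3 in experiment 2 alone (Mmp24, Adamts16 and Timp4). A gene can pass such a filter through the group where it is high, so counts, signs and medians over tested genes do not describe all 41.

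Positions are those of the GRCm38 annotation. Mmp2 (ENSMUSG00000031740) spans chromosome 8 from 92827291 to 92853420, Mmp14 (ENSMUSG00000000957) chromosome 14 from 54431612 to 54445364, and Mmp3 (ENSMUSG00000043613) chromosome 9 from 7445822 to 7455975. Mmp19 (ENSMUSG00000025355) lies on chromosome 10 from 128790910 to 128800824 and Mmp24 (ENSMUSG00000027612) on chromosome 2 from 155775342 to 155818366. Of the ADAMTS genes, Adamts9 (ENSMUSG00000030022) lies on chromosome 6 from 92772699 to 92943492 and Adamts12 (ENSMUSG00000047497) on chromosome 15 from 11064790 to 11349231. Timp1 (ENSMUSG00000001131) lies on the X chromosome from 20870166 to 20874735, Timp2 (ENSMUSG00000017466) on chromosome 11 from 118301069 to 118355740 and Timp3 (ENSMUSG00000020044) on chromosome 10 from 86300372 to 86349506. All are annotated as protein-coding, and the counts are over all exons of a gene.

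**Figure D1:**
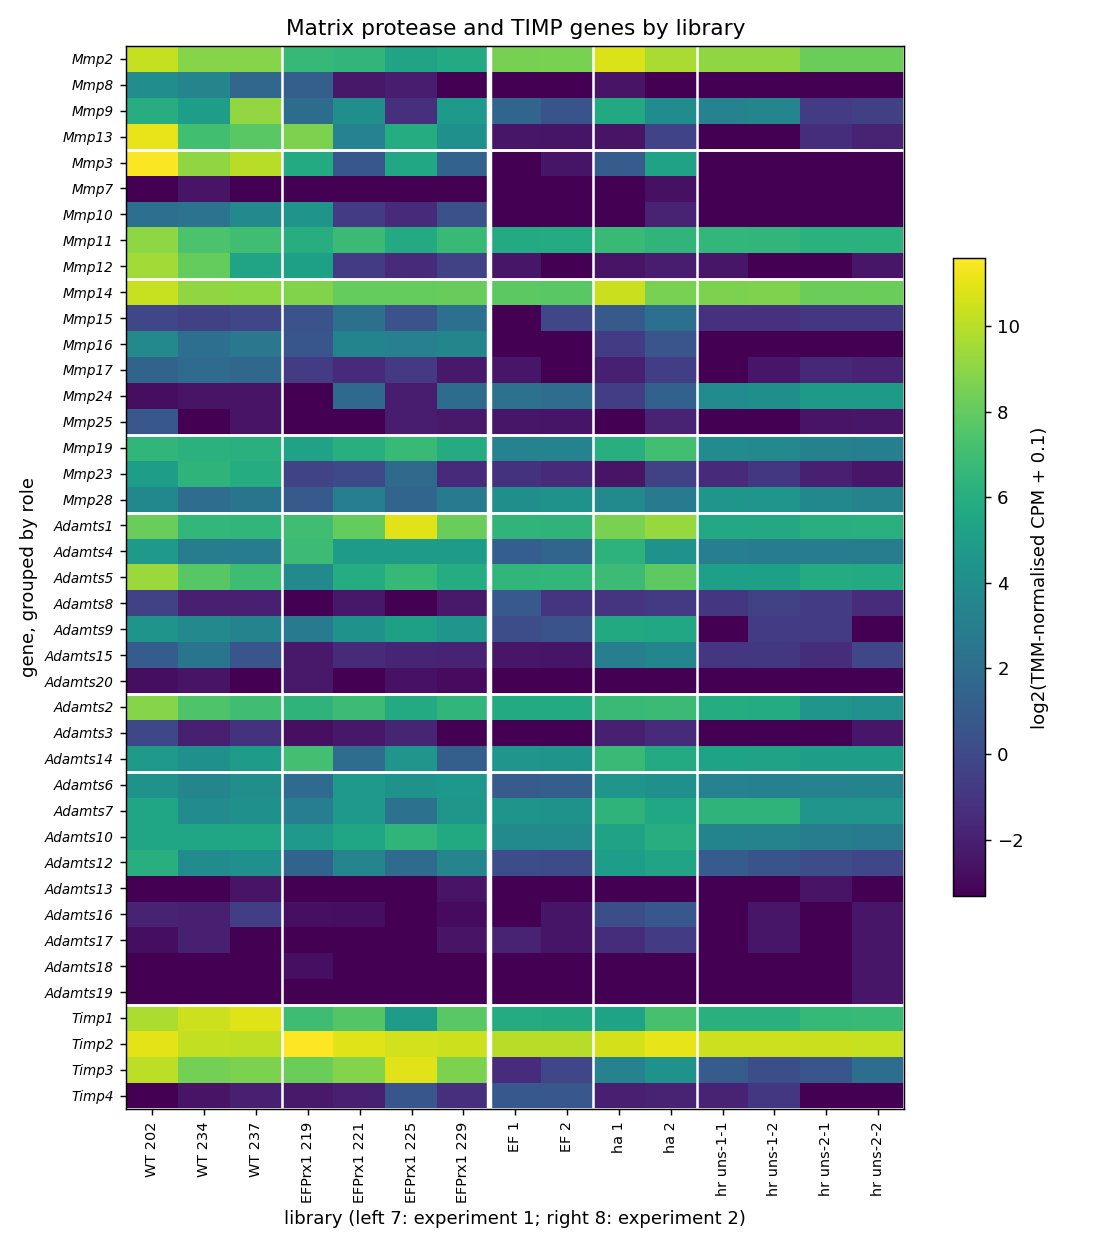
Level of each of the 41 genes (vertical axis, grouped by role) in each of the 15 libraries (horizontal axis), as log2 of TMM-normalised CPM plus 0.1. Mmp2, Mmp14 and Timp2 are bright in every library, Timp3 is bright only in the 7 libraries of experiment 1, and the chromosome 9 genes Mmp3, Mmp12 and Mmp13 have their brightest library in WT.

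In the EFPrx1 libraries 6 of 29 tested genes were lower than in WT and 0 were higher: the gelatinase Mmp2, stromelysin-1 (Mmp3), the membrane-anchored proteases Mmp17 and Mmp23, the versican-cutting Adamts15, and the inhibitor Timp1. Over all 14596 genes tested, 12.1% were called lower and 7.70% higher (edgeR, adjusted p under 0.05). At an unadjusted p under 0.05, 16 of the 29 passed, a count for which no share over all genes was taken. DESeq2 called 14 of the 29 lower and 2 higher, against 2555 lower and 2043 higher of all 14596 genes. The median log2 fold change was -1.34 over the 29 genes, -2.79 over the 15 MMPs and 0.23 over the 11 ADAMTS, against 0.04 over all genes. Mmp8, Mmp17 and Adamts15, for example, passed the filter on low counts only through WT, which set their signs. In bulk RNA, fewer cells of a type and less RNA per cell cannot be told apart.

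Gelatinase A, Mmp2, was at 1261, 467 and 469 CPM in WT 202, 234 and 237, and at 103, 88.2, 41.4 and 55.2 CPM in EFPrx1 219, 221, 225 and 229. Every WT library lay above every EFPrx1 library, and WT 202 stood highest. The log2 fold change was -3.35 ± 0.51 (SE; means of 71.9 ± 28.5 and 732 ± 458 CPM, SD, n = 4 and 3; edgeR adjusted p = 0.00596). Its surface activator Mmp14 was at 1292, 558 and 527 CPM in WT and at 441, 264, 271 and 279 CPM in EFPrx1. These groups also did not overlap, but the difference missed the threshold (-1.34 ± 0.41, adjusted p = 0.0557). It passed with DESeq2, with DESeq2 size factors and without EFPrx1 219.

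Stromelysin-1, Mmp3, which cuts proteoglycans and activates other proenzymes, showed the widest gap of the called genes. The gene was at 2837, 554 and 1029 CPM in WT and at 54.8, 1.53, 49.6 and 2.43 CPM in EFPrx1. Within EFPrx1, 219 and 225 lay far above 221 and 229. The log2 fold change was -5.77 ± 1.42 (adjusted p = 0.0294), and the call was lost without WT 234, without WT 237, without EFPrx1 229 and with no filter on low counts. Mmp23, a membrane-anchored MMP, was at 32.3, 82 and 59.3 CPM in WT and at 0.717, 0.863, 3.53 and 0.243 CPM in EFPrx1 (-5.46 ± 0.88, adjusted p = 0.00683). The highest EFPrx1 library for this gene, 225, was still far below the lowest WT library.

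Of the lowly expressed genes, the GPI-anchored Mmp17 fell by 3.24 ± 0.61 on the log2 scale (2.74 to 3.63 CPM in WT, 0.104 to 0.512 CPM in EFPrx1; adjusted p = 0.0112). Adamts15 fell by 3.98 ± 0.65 (1.44 to 5.37 CPM in WT, 0.102 to 0.24 CPM in EFPrx1; adjusted p = 0.00715). The calls for Mmp2, Mmp17, Mmp23 and Adamts15 held in every alternative in which they were tested.

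Among the inhibitors, Timp1 was at 874, 1421 and 1872 CPM in WT and at 125, 197, 29.5 and 214 CPM in EFPrx1. The groups were well apart, and the lowest library, 225, was the one with the highest Timp3. The Timp1 log2 fold change was -3.30 ± 0.66 (adjusted p = 0.0144; 0.0518 without WT 237). Timp1 lies on the X chromosome. WT 202 and WT 234 carried 97.7 and 48.7 CPM of the Y-linked Ddx3y, which was at 0.144 CPM or less in the others. Xist was at 2.65, 2.19 and 546 CPM in WT 202, 234 and 237, and at 776 to 1200 CPM in EFPrx1. These sex-linked transcripts thus ran partly with the groups, a limit on every test of experiment 1. Their part was not tested. Timp2 was at 2000, 1200 and 1157 CPM in WT and at 3069, 1890, 1532 and 1381 CPM in EFPrx1, which overlapped (0.44 ± 0.40, adjusted p = 0.463). Timp3 was at 1104, 350 and 402 CPM in WT and at 299, 447, 1925 and 406 CPM in EFPrx1 (0.31 ± 0.76, adjusted p = 0.792). The sign of its difference rested on EFPrx1 225, without which it was -0.74. Timp4 was at 1.47 CPM or less in each library of experiment 1 and was not tested there.

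**Figure D2:**
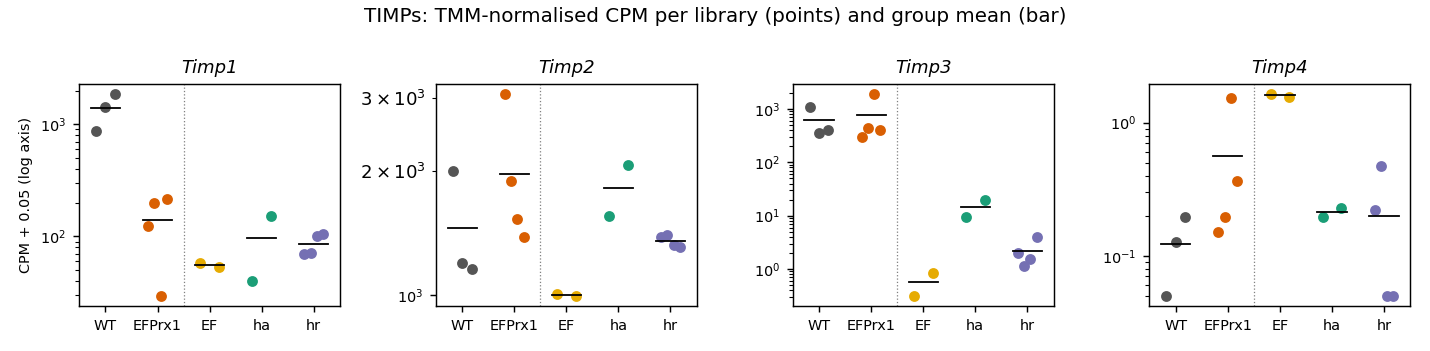
TMM-normalised CPM (log axis, after adding 0.05) of the 4 TIMP genes in each library (points) with the group mean (bar); the dotted line parts the experiments. Timp1 is lower in all 4 EFPrx1 libraries than in the 3 WT libraries, Timp2 stays between 998 and 3069 CPM throughout, and Timp3 is at most 19.3 CPM in experiment 2.

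The other tested genes did not pass. Values for ADAMTS in this comparison went in both directions, with 6 of 11 positive. Adamts1, an aggrecan and versican protease, was 2.03 ± 1.02 higher on the log2 scale (adjusted p = 0.191) with EFPrx1 225 alone at 1908 CPM and the other EFPrx1 libraries at 130 to 290. Adamts4 was 1.93 ± 0.71 higher (adjusted p = 0.0936), while Adamts5 had a log2 fold change of -2.48 ± 0.74 (adjusted p = 0.0538); they passed without WT 202 and without EFPrx1 225, respectively. Without EFPrx1 219, Mmp8, Mmp10, Mmp12 and Mmp14 passed as well, which made 10 genes lower. The gelatinase Mmp9 (-4.19, adjusted p = 0.0785), macrophage elastase Mmp12 (-5.26, 0.0878) and neutrophil collagenase Mmp8 (-4.02, 0.0925) had large negative values with wide errors. These 3 genes are known from osteoclasts, macrophages and neutrophils. In the same libraries 11 of 12 macrophage and blood markers were called lower in EFPrx1. Of the defining markers, Ptprc was at 79.3 to 102 CPM in WT and at 0.0348 to 5.79 in EFPrx1, and Adgre1 at 185 to 247 against 0.288 to 3.79 CPM. Osteoclast markers summed to 402 to 1698 CPM in WT and 7.44 to 45.8 CPM in EFPrx1, and neutrophil markers to 19.2 to 209 against 0.139 to 0.974 CPM. Of the 6 osteoclast markers, Ctsk alone was at 369 to 1048 CPM in WT and at 4.61 to 44.6 CPM in EFPrx1. Only 2 or 3 of the 6 reached 10 CPM in a WT library. The neutrophil sum rested on few genes. Of its 6 markers, S100a9 and Elane were at 0 in every WT library, and only 1 or 2 reached 10 CPM in a WT library. The part of these blood, osteoclast and neutrophil markers in the lower protease and Timp1 levels was not tested.

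Other protease systems were read from lists beside the members. Cathepsins, the lysosomal proteases, were listed with their inhibitor cystatin C, and 9 of these 12 genes were called lower and 0 higher (9 at an unadjusted p under 0.05). Ctsb, Ctsc and Ctsd had log2 fold changes of -2.04, -7.61 and -3.19. The lower genes Ctss (-8.17) and Ctsk (-4.93) are also in the blood and the osteoclast marker list, so the lists are not independent. The part of the marker differences in the cathepsin values was not tested. Of 10 ADAM sheddases 3 were lower, Adam8 (-4.32), Adam12 (-3.58) and Adam33 (-5.60), and 0 were higher. In the plasminogen list 2 of 8 were lower, tissue factor F3 (-3.51) and the plasminogen receptor Plgrkt (-0.93). Of 10 regulators of MMPs, Thbs1, a thrombospondin that binds MMPs, rose (3.20), and 3 fell, among them Pcsk5 (-8.41) and Thbs2 (-2.28). Of 8 ADAMTS-like and C-proteinase genes, Adamtsl4 rose (1.66) and Adamtsl5 fell (-5.18).

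As a gene cluster, Mmp13, Mmp12, Mmp3, Mmp10, Mmp8 and Mmp7 lie within 427 kb on chromosome 9 (7272514 to 7699585, GRCm38), near Yap1. Their summed level was 972 to 5760 CPM in WT and 12.2 to 508 CPM in EFPrx1. All 5 tested members had a negative fold change and 1, Mmp3, was called. Mmp8 passed the filter on low counts only through WT, which set its sign. The log2 fold change of Mmp10 was -0.39 (edgeR adjusted p = 0.863) and turned to 0.27 without WT 237. Collagenase-3, Mmp13, was at 2156, 137 and 218 CPM in WT and at 396, 9.54, 60.2 and 17.7 CPM in EFPrx1 (-2.79 ± 1.45, adjusted p = 0.207), so that EFPrx1 219 lay among the WT libraries. In EFPrx1 219, Mmp8, Mmp10, Mmp12 and Mmp13 all had the highest level of their group. In experiment 2 the cluster was near silent in EF (0.16 to 0.177 CPM summed) and in hr (0 to 0.285 CPM), and reached 2.12 and 39.6 CPM in ha. Nearly all of the ha signal was Mmp3. The neighbouring Yap1, the transcriptional coactivator of the study's title, was at 69.8 to 136 CPM in WT, 172 to 213 in EFPrx1, 1249 to 1276 in EF, 185 to 196 in ha and 1412 to 1807 in hr. These Yap1 values are given as a description.

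**Figure D3:**
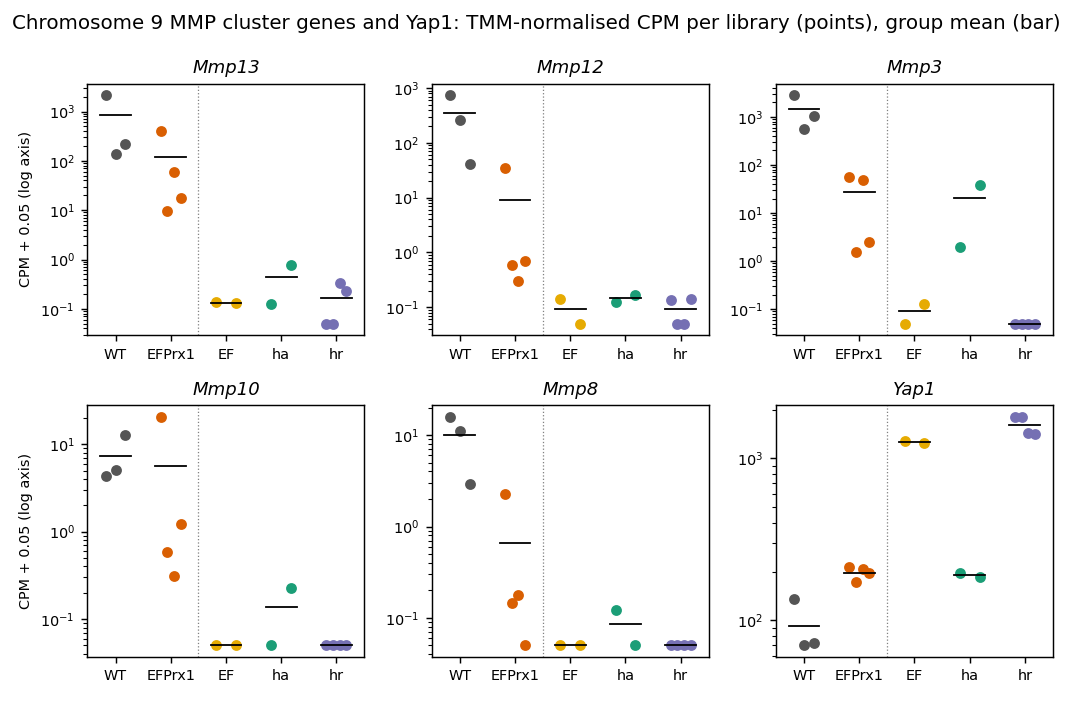
TMM-normalised CPM (log axis, after adding 0.05) of 5 chromosome 9 cluster MMP genes and of Yap1 in each library (points) with the group mean (bar). The group means of the MMP genes are highest in WT and at or near 0 in EF and hr, with EFPrx1 219 above every WT library for Mmp10 and above 2 of the 3 for Mmp13, while Yap1 is at 1249 CPM or more in EF and hr and at 213 CPM or less in the other groups.

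In experiment 2, 17 of 25 tested genes were higher in ha than in EF and 1 was lower, against 23.0% higher and 19.6% lower over all 13998 genes tested. The rise covered gelatinase and membrane-type MMPs (Mmp2, Mmp14), stromelysin-1, Mmp19, 9 ADAMTS genes and the inhibitors Timp2 and Timp3. All 12 tested ADAMTS had a positive fold change, with a median of 2.93, and the median over the 25 genes was 1.92 against 0.05 over all genes. Mmp3, Mmp15, Adamts15 and Adamts16 passed the filter on low counts only through ha, and Timp4 only through EF. Their signs were thus set by the filter. Of the untested ADAMTS, Adamts8 had 24 counts in EF and 13 in ha, Adamts17 had 3 and 13, and Adamts3 had 0 and 6. With the close libraries summed, which leaves 1 EF sample that is assumed to vary like the others, 7 were higher and 0 lower: Mmp19, Adamts1, Adamts6, Adamts9, Adamts12, Adamts15 and Timp3. Over all genes, 438 were called higher in that fit, against 3214 with the libraries kept apart.

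Of the 5 proteoglycan-cutting ADAMTS tested, 4 rose. Adamts9, a versican protease, was at 1.06 and 1.28 CPM in the EF libraries and at 52 and 49.9 CPM in ha (5.43 ± 0.65, adjusted p = 0.000857). The ha libraries were close to each other here. Adamts1 was at 86 and 82.1 CPM in EF and at 378 and 634 CPM in ha (2.59 ± 0.28, adjusted p = 0.000619). Adamts4, an aggrecanase, was at 2.13 and 2.79 CPM in EF and at 78.9 and 20.3 CPM in ha, where ha 1 was well above ha 2 (4.32 ± 0.61, adjusted p = 0.00161; 0.0627 with close libraries summed). Adamts15 had 2 counts over both EF libraries and 307 over both ha libraries, or 8.19 and 11.5 CPM in ha. The counting interval of its ratio ran from 32.7 to 989 (exact, 95%, counting error only; adjusted p = 0.000308). Adamts5 (0.96, adjusted p = 0.072) did not pass with all libraries, and passed without ha 1. Adamts1 and Adamts5 lie 53.1 kb apart on chromosome 16.

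Adamts12, which cuts the cartilage protein COMP, was at 1.06 and 0.958 CPM in EF and at 31.8 and 41.7 CPM in ha (5.17 ± 0.39, adjusted p = 0.000183). Adamts6 was at 1.86 and 2.16 CPM in EF and at 21.4 and 17.7 CPM in ha (3.27 ± 0.20, adjusted p = 8.42e-05), the lowest adjusted p of the 25 genes. Its relative Adamts10, which binds fibrillin, was at 13.7 and 13.3 CPM in EF and at 37.8 and 63.1 CPM in ha (1.90 ± 0.29, adjusted p = 0.00209; 0.0684 with close libraries summed). Both ha libraries lay above both EF libraries for each of these genes. The procollagen N-propeptidase Adamts14 was at 22.5 and 20.8 CPM in EF and at 108 and 54.7 CPM in ha (1.91 ± 0.30, adjusted p = 0.00241; 0.0783 with close libraries summed). The other procollagen N-propeptidase tested, Adamts2, did not pass (1.05, adjusted p = 0.155). Adamts16 had 1 count in EF and 41 in ha, with a ratio interval of 5.4 to 1288 (adjusted p = 0.0103; lost without EF 1).

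Among MMPs, Mmp19, which acts on basement membrane proteins, was at 9.67 and 9.9 CPM in EF and at 67.8 and 132 CPM in ha (3.35 ± 0.37, adjusted p = 0.000627). Mmp2 was at 375 and 384 CPM in EF and at 1808 and 819 CPM in ha (1.79 ± 0.45, adjusted p = 0.015; 0.147 with close libraries summed). Mmp14 was at 229 and 222 CPM in EF and at 1316 and 387 CPM in ha (1.92 ± 0.49, adjusted p = 0.0172; 0.181 with close libraries summed). In both of these genes ha 1 stood far above ha 2, which was itself above EF. Mmp3 had 1 count in EF and 680 in ha, of which ha 2 had the larger share (38.5 CPM against 1.9 in ha 1). Its ratio interval was 94.5 to 20894 and its adjusted p 0.0358, or 0.144 with close libraries summed. Mmp11 (stromelysin-3) rose by 0.76 (adjusted p = 0.00803) and the membrane-type Mmp15 by 2.83 (adjusted p = 0.0497). Mmp9 was at 2.84 and 1.36 CPM in EF and at 52.5 and 15.3 CPM in ha but did not pass (4.02 ± 1.45, adjusted p = 0.0575). Leaving out EF 1 left 11 of the 17 higher calls, and leaving out EF 2 left 13. The calls for Mmp2, Mmp3, Mmp11 and Mmp14 were lost without either EF library, that for Mmp2 also without ha 1, and that for Mmp3 also without ha 2. The call for Mmp15 was lost without EF 1, ha 1 or ha 2.

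Of the inhibitors, Timp3 was at 0.266 and 0.798 CPM in EF and at 9.51 and 19.3 CPM in ha (4.71 ± 0.78, adjusted p = 0.00291). Timp2 was at 1010 and 998 CPM in EF and at 1558 and 2069 CPM in ha (0.85 ± 0.16, adjusted p = 0.00422; 0.188 with close libraries summed). Timp1 was at 57.9 and 53.6 CPM in EF and at 39.6 and 153 CPM in ha, so the ha libraries fell on either side of EF (0.79 ± 0.53, adjusted p = 0.268). The value turned to -0.49 without ha 2, and passed without ha 1 (1.45, adjusted p = 0.00948). Timp4 was the gene called lower (1.6 and 1.52 CPM in EF, 0.146 and 0.177 in ha; -3.18 ± 1.09, adjusted p = 0.0485). This call was lost without any 1 of the EF or ha libraries.

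In the lists beside the members, 3 of 8 plasminogen genes rose, with Plau, the urokinase protease, at 2.69 and F3 at 3.12, and 1 fell, its receptor Plaur (-2.85). Of 8 ADAMTS-like and C-proteinase genes 4 rose, among them Bmp1 (2.21), the procollagen C-proteinase. Adamtsl2 had 2 counts in EF and 188 in ha, and Tll1 had 1 and 489. Of 9 ADAM sheddases 4 rose and 1 fell, with Adam12 at 5.03, Adam17 at 0.61 and Adam8 at -3.10. Of 9 regulators 4 rose and 1 fell, with Reck, a membrane inhibitor of MMPs, at 1.42, Thbs1 at 4.12 and Thbs2 at 2.35. Of the cathepsins and cystatin C, 5 of 9 genes rose, among them Ctsb (1.51), Ctsa (1.17), Ctso (4.13) and the inhibitor Cst3 (1.68), and 0 fell. Mesenchymal markers moved in these libraries too: 6 of 10 were higher in ha, such as Thy1 (1.86) and Col1a2 (1.26), and Vim was lower (-1.20). Blood markers summed to 12.7 and 28.8 CPM in ha and 9.31 to 9.42 in EF, with Ptprc, Adgre1, Ctss, Tyrobp, Cd48 and Laptm5 at 0 in both ha libraries. Of the 3 blood markers tested, Lyz2 (1.94) and Cd14 (1.74) were called higher in ha. Epithelial markers summed to 14.1 to 16.1 CPM in EF and to 0.648 to 1.02 CPM in ha, and all 3 tested were called lower in ha. The part of these marker differences in the protease and TIMP results was not tested.

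**Figure D4:**
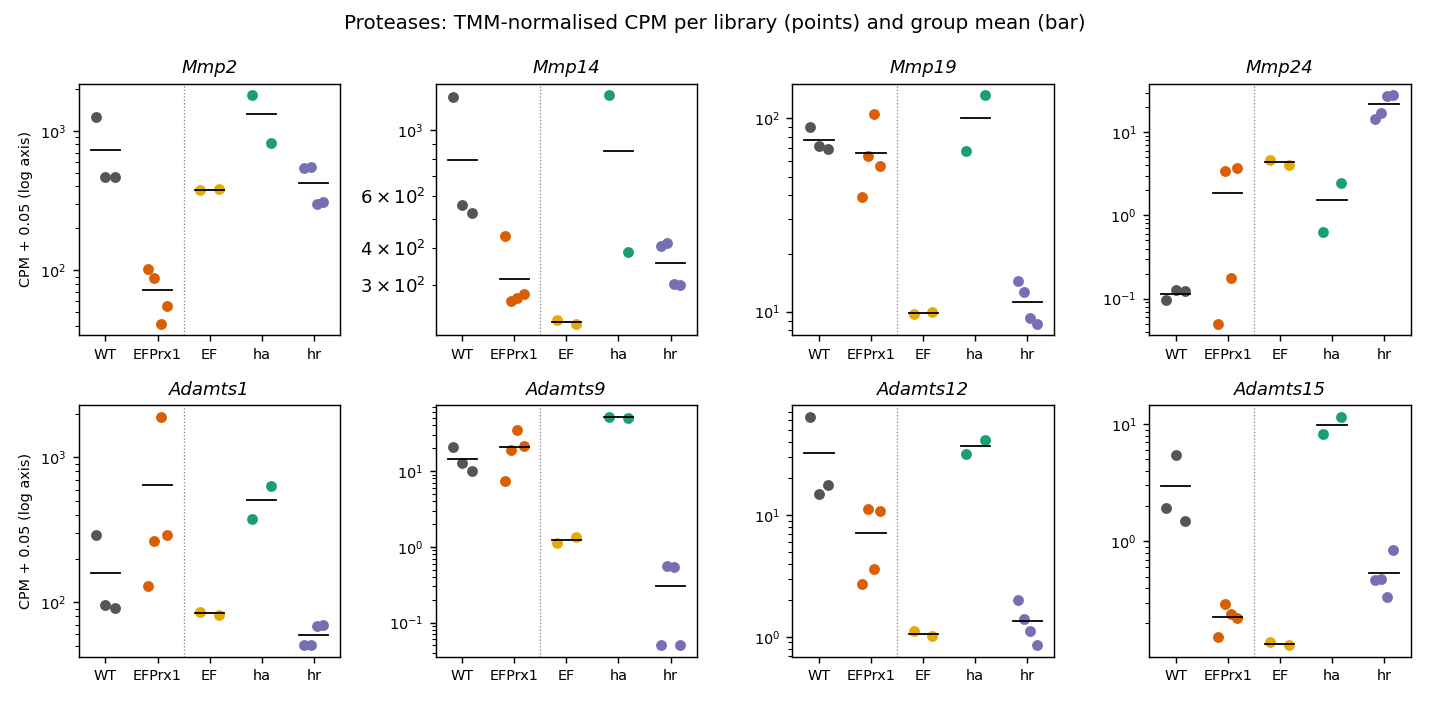
TMM-normalised CPM (log axis, after adding 0.05) of 8 protease genes in each library (points) with the group mean (bar); the dotted line parts the experiments. Adamts1, Adamts9, Adamts12, Adamts15 and Mmp19 are higher in both ha libraries than in all EF and hr libraries, and Mmp24 is highest in the 4 hr libraries.

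Few members differed between hr and EF: 2 of 25 were higher, the membrane-type Mmp24 and Adamts6, and 0 were lower, against 3.88% higher and 3.07% lower over all genes. At an unadjusted p under 0.05, 12 of 25 passed, a count for which no share over all genes was taken. DESeq2 called 6 of the 25 higher and 2 lower, against 1085 higher and 888 lower of all 13998 genes. The median log2 fold change was 0.35 (0.43 over the 23 genes with more than 3 counts in a group, a gene at 0 set to its bound) against 0.01 over all genes. With the close libraries summed, and without either EF library, 0 members and 0 of all genes were called. The ha and hr comparisons share the EF libraries.

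Mmp24, a membrane-type MMP known mainly from neural tissue, was at 4.61 and 3.99 CPM in EF and at 14.5, 16.8, 27.4 and 27.9 CPM in hr uns-1-1, uns-1-2, uns-2-1 and uns-2-2. All hr libraries lay above both EF libraries, and the uns-2 pair above the uns-1 pair (2.33 ± 0.50, adjusted p = 0.0396; 0.916 with close libraries summed). The Mmp24 call was lost without any 1 of the EF or hr libraries. Adamts6 was at 1.86 and 2.16 CPM in EF and at 9.61, 9.19, 9.56 and 10.6 CPM in hr, which hardly varied (2.27 ± 0.18, adjusted p = 0.00498; 0.694 with close libraries summed). Mmp2 was at 375 and 384 CPM in EF and at 545, 550, 297 and 307 CPM in hr, on both sides of EF (0.16 ± 0.38, adjusted p = 0.83). Mmp14 was at 229 and 222 CPM in EF and at 405, 417, 303 and 300 CPM in hr (0.66 ± 0.43, adjusted p = 0.371). Timp1, Timp2 and Timp3 had positive differences that did not pass the test, Timp1 at 69.1 to 105 against 53.6 to 57.9 CPM (0.63 ± 0.47, adjusted p = 0.44), and Timp2 at 1311 to 1400 against 998 to 1010 CPM (0.43 ± 0.14, 0.0968). Timp3 was at 1.94, 1.11, 1.5 and 4 CPM in hr against 0.266 and 0.798 CPM in EF (1.96 ± 0.72, 0.138). Timp4 had the opposite sign, at 0 to 0.426 CPM against 1.52 and 1.6 CPM (-3.34, 0.0681).

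In the other protease lists 0 of 8 plasminogen genes, 0 of 9 ADAM sheddases and 0 of 9 MMP regulators passed (0, 2 and 4 at an unadjusted p under 0.05). Bmp1 rose (0.74, adjusted p = 0.049), and of the 9 genes in the list of cathepsins and cystatin C, Ctsl (0.68) and Ctso (2.26) rose. Epithelial markers summed to 39.9 to 53.3 CPM in hr and to 14.1 to 16.1 CPM in EF, and 2 of the 3 tested were called higher in hr. Of 10 mesenchymal markers 1 was called lower, Pdgfrb (-1.64), as was 1 of 3 blood markers, and 0 of either list were higher. The part of these marker differences in the member results was not tested.

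The 2 hr pairs, uns-1 and uns-2, are given side by side without a test, since the libraries within a pair may be repeats of 1 sample. Mmp9 had the widest ratio of the genes detected in both pairs, with means of 10.3 CPM in uns-1 and 0.561 CPM in uns-2 (18.4-fold). Adamts7, which cuts COMP, stood at 82.8 and 21.9 CPM (3.78-fold), and Adamts2 at 57.9 and 20.3 CPM (2.86-fold). Mmp28 (23 and 11.2 CPM), Mmp2 (548 and 302 CPM) and Mmp14 (411 and 302 CPM) were also higher in uns-1. Higher in uns-2 were Mmp24 (15.6 and 27.6 CPM), Adamts5 (34.5 and 56.8 CPM), Adamts1 (50.2 and 69.1 CPM) and Timp1 (69.9 and 102 CPM). Adamts4 (7.92 and 7.73 CPM) and Adamts6 (9.4 and 10.1 CPM) overlapped between the pairs.

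Compared with ha directly, 18 of 25 tested genes were lower in hr and 1, Mmp24, was higher, against 21.5% lower and 17.9% higher over all genes. The lower genes included 11 of 12 ADAMTS, with Adamts7 as the exception (-0.33, adjusted p = 0.683), and Mmp2, Mmp3, Mmp14, Mmp15, Mmp19, Timp2 and Timp3. The median log2 fold change was -1.96 over the 25 genes and -2.60 over the ADAMTS, against -0.00 over all genes. Mmp3, Mmp15, Adamts15 and Adamts16 passed the filter on low counts only through ha, which set their signs here too. With the close libraries summed 9 were lower and 1 higher. The same ha and hr libraries enter the comparisons with EF.

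Of the ADAMTS genes, Adamts9 was at 0, 0.511, 0.499 and 0 CPM in hr, against 52 and 49.9 CPM in ha (-7.54 ± 0.58, adjusted p = 0.000132). Adamts12 was at 1.94, 1.36, 1.07 and 0.8 CPM in hr against 31.8 and 41.7 CPM (-4.82 ± 0.28, adjusted p = 5.09e-05). Adamts1 was at 50.2, 50.3, 68.8 and 69.4 CPM in hr against 378 and 634 CPM (-3.08 ± 0.22, adjusted p = 0.000115). No hr library came near the lower ha library in these 3 genes. Adamts10 was at 10.4, 10.1, 7.42 and 7.02 CPM in hr (-2.53 ± 0.23, adjusted p = 0.000289), below its 37.8 and 63.1 CPM in ha. Adamts5, the second aggrecanase of the chromosome 16 pair, was at 34.1, 35, 57.3 and 56.3 CPM in hr and at 118 and 236 CPM in ha (-1.96 ± 0.31, adjusted p = 0.00251). Adamts6 had the smallest change among these (-1.01 ± 0.15, adjusted p = 0.00173), and its call was lost with close libraries summed. Its means were 2.01 CPM in EF, 9.73 CPM in hr and 19.6 CPM in ha.

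Mmp19 was at 14.3, 12.6, 9.28 and 8.62 CPM in hr against 67.8 and 132 CPM in ha (-3.16 ± 0.28, adjusted p = 0.000252). Mmp24 was the gene with the opposite direction, at 14.5 to 27.9 CPM in hr against 0.585 and 2.42 CPM in ha (3.80 ± 0.56, adjusted p = 0.00187; 0.0335 with close libraries summed). Mmp2 had a log2 fold change of -1.63 ± 0.36 (adjusted p = 0.0104; 0.105 with close libraries summed) and Mmp14 one of -1.26 ± 0.40 (adjusted p = 0.0401; 0.228 with close libraries summed). The highest hr library for Mmp14 (417 CPM) lay above ha 2 (387 CPM), and this call was lost without any 1 of the hr libraries or without ha 1. Mmp3 had 0 counts in all 4 hr libraries and 680 in ha, which makes it at least 362-fold lower against a floor of 3 counts over the hr group. Of the 680 counts, 654 came from ha 2. Against ha 1 alone, with 26 counts, the bound is 31-fold, a value added after the data were seen. The call (adjusted p = 0.0145) was lost with close libraries summed (adjusted p = 0.0729) and with no filter on low counts (0.2).

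The remaining called genes were Adamts15 (-4.34), Adamts4 (-2.66), Adamts14 (-1.17), Adamts2 (-1.54), Mmp15 (-2.91), and Adamts16, with 2 counts in hr and 41 in ha and a ratio interval of 0.00358 to 0.118. The call for Adamts2 was lost without ha 1 or ha 2, that for Mmp15 without ha 2 and that for Mmp2 without ha 1. Timp3 had a log2 fold change of -2.76 ± 0.53 (1.11 to 4 CPM in hr, 9.51 and 19.3 CPM in ha; adjusted p = 0.0056). Timp2 had a log2 fold change of -0.42 ± 0.13 (1311 to 1400 CPM against 1558 and 2069 CPM; adjusted p = 0.0375), a call lost without any 1 of the hr libraries or without ha 2. Timp1 was at 69.1, 70.7, 100 and 105 CPM in hr, between the ha libraries at 39.6 and 153 CPM (-0.16 ± 0.45, adjusted p = 0.804). Its call depended on the ha library used: without ha 2 the value was 1.12 (adjusted p = 0.0279), and without ha 1 it was -0.82 (adjusted p = 0.0458). Calls for 10 genes held in every alternative in which they were tested: Mmp19, Mmp24, Adamts1, Adamts5, Adamts9, Adamts10, Adamts12, Adamts15, Adamts16 and Timp3.

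Of the related lists, 3 of 8 plasminogen genes were lower in hr, with Plau at -2.49 and Serpine2, an inhibitor of urokinase, at -6.88, and Plaur was higher (2.79). Of 8 ADAMTS-like and C-proteinase genes 3 were lower, Bmp1 (-1.48), Adamtsl2 (-4.60) and Tll1, which had 0 counts in hr and 489 in ha (at least 260-fold lower), and 1 was higher. Of 9 ADAM sheddases 3 were lower and 2 higher, with Adam12 at -3.93, Adam23 at -2.79 and Adam8 at 2.78. Of 9 regulators 4 were lower and 2 higher, with Reck at -1.78, Thbs1 at -5.30 and Thbs2 at -3.31. In the 9-gene list of cathepsins and cystatin C 5 were lower and 1 higher, with Ctsa at -0.92, Ctsk at -1.58 and the inhibitor Cst3 at -1.48. Mesenchymal markers were lower in hr for 6 of 10 genes, such as Pdgfrb (-3.95) and Thy1 (-2.34), and Vim was higher (1.26). Epithelial markers summed to 39.9 to 53.3 CPM in hr and to 0.648 to 1.02 CPM in ha, with Epcam at 0 in both groups. The part of these marker differences in the member results was not tested.

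**Figure D5:**
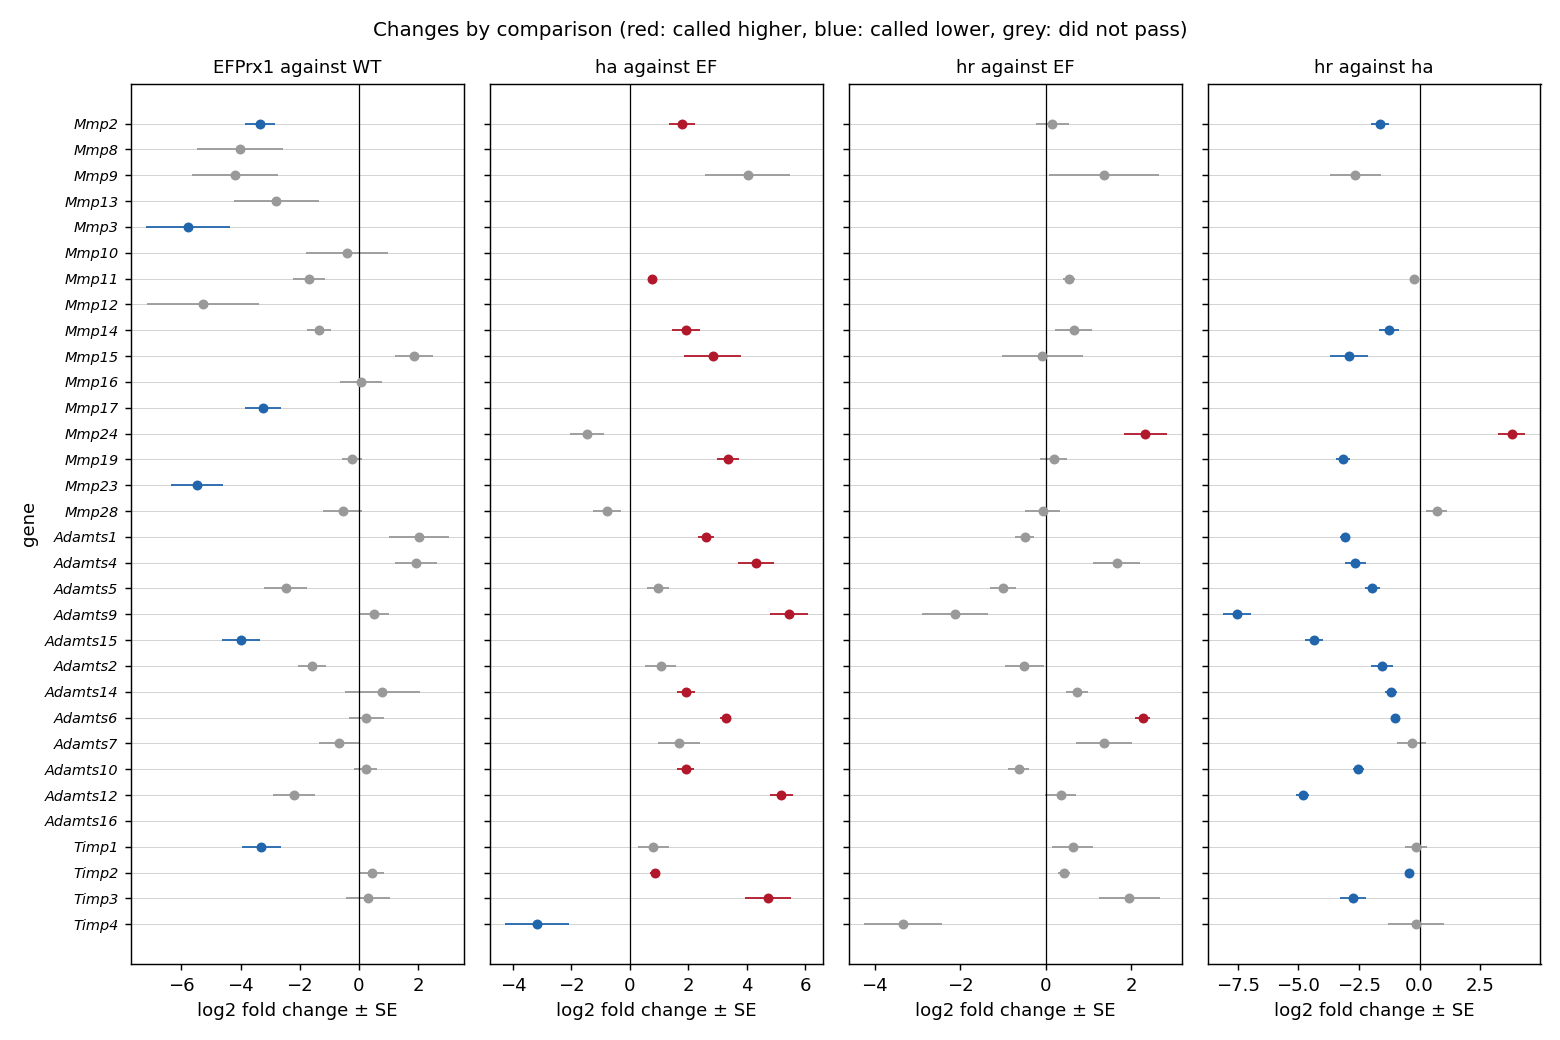
Log2 fold change ± SE (horizontal axis) of each tested gene (vertical axis) in the 4 comparisons, red where called higher, blue where called lower and grey where it did not pass; genes with 3 or fewer counts in a group are not drawn. The called genes lie left of 0 for EFPrx1 against WT, mostly right of 0 for ha against EF and mostly left of 0 for hr against ha, with Mmp24 on the right in the last panel.

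Timp3 was at 299 to 1925 CPM in the 7 libraries of experiment 1, and at 0.266 to 19.3 CPM in the 8 of experiment 2. The experiments were run on different flowcells and were scaled apart, so the flowcell and the experiment cannot be told apart and no test was made. Exons of Timp3 overlap those of Syn3 on the other strand, and a strand setting for the counting is not stated, so their reads may be mixed. The same limit holds for Mmp11, Mmp12, Mmp19, Mmp24, Mmp28, Adamts4, Adamts7, Adamts9 and Timp4, whose exons overlap those of another annotated gene on the other strand.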

How the data were processed

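Poly(A)-selected RNA of 15 libraries was sequenced. The values are expected counts per gene (RSEM estimates, which can be fractional) as the authors deposited them, made with STAR and RSEM on GRCm38.p6, per the submitters' processing notes, which give no versions. The annotation release and strand setting are not stated there. RSEM divides reads between similar copies, so values of close paralogs are uncertain.

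Expected counts were rounded: 8.27% of deposited values were fractional, and totals moved by at most 0.000579%. With R 4.3.3, edgeR 4.0.16 and limma 3.58.1, genes were filtered by filterByExpr (minimum count 10), scaled by TMM and compared with edgeR's quasi-likelihood test, two-sided, with Benjamini-Hochberg adjustment over all genes tested and a threshold of 0.05. Experiment 1 (7 libraries) and experiment 2 (8 libraries) were fitted apart, and the 3 groups of experiment 2 share 1 estimate of the spread. Standard errors come from the quasi-likelihood F statistic. The procedure was tested on simulated data.

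The 41 genes and the lists were chosen with earlier results of these data known. Described first are called genes without overlap between groups whose higher group averaged 10 CPM or more, up to 8 per comparison by p; Mmp2, Mmp14, Timp1, Timp2 and Timp3 are given in every comparison, other called members with their fold change, and up to 3 called genes of each related list. Intervals and floors (3 counts over a group) cover counting error only.

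Alternatives were DESeq2 size factors, DESeq2 1.42.0, no filter, a filter at 5 CPM, leaving out each library and, in experiment 2, the replicate block, the 2 groups compared alone and close libraries summed. Deviations of same-numbered libraries correlated at -0.021 to 0.02 between groups of experiment 2, so the numbers were not taken as pairs.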

Additional observations from a re-analysis of the deposited data

Results flagged for a closer look

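In groups of 4, a library was picked out where its gap to the nearest other divided by the group's range exceeded Dixon's 95% critical value for 4 samples. The hr libraries form 2 close pairs, so a lone library could hardly be picked out there. Genes of the same library are not independent, so the number of cases is not set against a rate by chance. The rule was met 9 times in 53 groups of values, all 9 in EFPrx1. Of these, 7 were the library 219: Mmp8 at 2.2 CPM (others 0 to 0.128), Mmp10 at 20.5 CPM (0.257 to 1.18), Mmp12 at 35.2 CPM (0.257 to 0.66), Mmp13 at 396 CPM (9.54 to 60.2), Mmp14 at 441 CPM (264 to 279), Adamts4 at 117 CPM (30 to 30.2) and Adamts14 at 140 CPM (2.19 to 21.8). The other 2 were the library 225, with Adamts1 at 1908 CPM (130 to 290) and Timp3 at 1925 CPM (299 to 447). EFPrx1 219 also had the highest summed blood markers of its group (412 CPM) and EFPrx1 225 the highest share of mitochondrial counts (8.43%).

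In 5 genes tested in experiment 2 the hr pairs lay on opposite sides of EF, a difference that was not tested. The ratio of uns-1 to uns-2 was 1.81 for Mmp2, 18.4 for Mmp9, 1.5 for Mmp19, 2.05 for Mmp28 and 2.86 for Adamts2, with uns-1 above and uns-2 below the EF libraries in each. The margin to EF was small for Adamts2 (56.5 CPM in uns-1-2, 56.1 in EF 2) and for Mmp19 (9.28 CPM in uns-2-1, 9.67 in EF 1). Mmp13 also lay on opposite sides but passed no filter for testing there, and its few counts ran the other way. It had 0 counts in both uns-1 libraries, 4 and 2 in uns-2-1 and uns-2-2, and 1 in each EF library.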

How the results depend on the processing

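Of the called genes, 4 of 6 for EFPrx1 against WT, 7 of 18 for ha against EF, 0 of 2 for hr against EF and 10 of 19 for hr against ha held in every alternative in which they were tested. With close libraries summed, members called higher in ha against EF numbered 7 and lower 0 (all genes 736), in hr against EF 0 higher (all genes 0), and in hr against ha 9 lower (all genes 1272). This fit has fewer samples, with 1 for EF. DESeq2 called 2 members higher and 14 lower for EFPrx1 against WT (all genes 4598), and 6 higher and 2 lower for hr against EF (all genes 1973). With the 2 groups alone, hr against EF gave 6 higher and 1 lower (all genes 1927). Without a filter it gave 1 lower, and the filter at 5 CPM left 0 lower in ha against EF, since Timp4 was not tested.

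The replicate block, with title numbers that do not pair the samples, left 17 higher and 0 lower members for ha against EF, 1 higher for hr against EF (all genes 322), and 1 higher and 16 lower for hr against ha. No block was possible in experiment 1, whose title numbers differ between groups.

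Leaving out 1 library at a time gave 0 to 1 higher and 4 to 10 lower members for EFPrx1 against WT (all genes 1219 to 5087; 2887 with all libraries). It gave 11 to 17 higher and 0 to 1 lower for ha against EF (all genes 3070 to 5481). For hr against EF it gave 0 to 1 higher (all genes 0 to 379), and for hr against ha 1 to 2 higher and 15 to 16 lower (all genes 4515 to 5123).

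Signs turned in differences that did not pass with all libraries. For EFPrx1 against WT the values over left-out libraries ran from -3.54 to 0.27 for Mmp10, -0.22 to 0.66 for Mmp16, -0.96 to 0.09 for Mmp28, -0.01 to 0.52 for Adamts6, -1.11 to 0.00 for Adamts7, -0.21 to 0.38 for Adamts10, -1.44 to 1.15 for Adamts14 and -0.74 to 1.04 for Timp3. For ha against EF they ran from -0.49 to 1.45 for Timp1. For hr against EF they ran from -3.23 to 0.00 for Mmp3, -1.02 to 5.37 for Mmp15 (0.23 with the replicate block), -0.27 to 0.11 for Mmp28 and -0.81 to 2.40 for Adamts16 (0.03 with the block); Mmp3 and Adamts16 have 3 or fewer counts in both groups. For hr against ha they ran from -0.65 to 0.08 for Adamts7, -0.82 to 1.12 for Timp1 and -1.43 to 0.28 for Timp4. Apart from fits with fewer samples or genes, the cause was not tested.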
